A study of Mus musculus with 22 samples.

Results

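The sites described here are the stretches of the mouse genome that carried the chromatin remodeller BRG1 in all 4 BRG1 libraries of the study and lay far from protein-coding gene ends. A member is a merged region of the wildtype (WT) BRG1 library at 16 sonication cycles that overlapped, by 1 bp or more, a region in the WT library at 20 cycles and in both libraries of cells lacking Lap2alpha (KO), and that lay more than 10 kb from both ends of every protein-coding gene. The members were thus chosen by measured values, the presence of BRG1 regions, and their BRG1 is given as a description only. By this rule 28233 sites were found, 63.4% of the 44506 constant BRG1 sites and 39.1% of the 72225 regions of the WT library at 16 cycles.

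The cells were mouse dermal fibroblasts, labelled as a cell line, that were WT or Lap2alpha KO. All libraries came from cells fixed with both DSG and formaldehyde, and their chromatin was sonicated for 16 or 20 cycles. BRG1, CHD4 and lamin A/C (antibodies 3A6 and E1) were precipitated in both genotypes and Lap2alpha (antibody 1H11) in WT, and every genotype, antibody and number of cycles has 1 library. The 4 input libraries were not analysed here, and how the KO cells were made and whether they are 1 clone is not given in the sources used here.

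BRG1 is an ATPase of the SWI/SNF (BAF) complexes, which move and evict nucleosomes, and away from promoters it is best known at active enhancers. In fibroblasts such enhancers are known to be bound by AP-1 and TEAD transcription factors. CHD4 is the ATPase of the NuRD complex, which couples remodelling to histone deacetylation and is found at enhancers as well as promoters. Lamin A and C form much of the lamina beneath the nuclear envelope and also exist in the nuclear interior, where Lap2alpha binds them.

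Each library was deposited as a list of intervals without heights or scores, so a site either holds a region of a library or does not. List length ran from 7283 regions for KO CHD4 at 20 cycles to 233769 for KO E1 at 20 cycles, and longer lists can hit more sites. Intervals that overlapped between lists often had exactly the same centre. Among 11 of the lists (WT BRG1 at both lengths, KO BRG1 at 16 cycles, the CHD4 lists other than KO at 20 cycles, the 3A6 lists other than KO at 20 cycles, and Lap2alpha) this held for 69.7% to 88.9% of overlapping intervals. KO BRG1 and KO 3A6 at 20 cycles shared 81.9% to 85.0% of centres with each other, and KO CHD4 at 20 cycles and the 4 E1 lists 88.0% to 95.9%. Between this last group and the other 13 lists the share was at most 1.60%. How the lists came to share centres is not given in the sources used here, and its part in the overlaps was not tested. The CHD4, lamin A/C and Lap2alpha shares are therefore also given without regions centred on a WT BRG1 interval of the 16-cycle list, a step that removes many regions of the first group and almost none of the last.

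Only a small number of the sites coincide with a known transcript start, and for these the sequence could be read. RefSeq start windows on GRCm38.p6 (from 250 bases before to 50 after a start) lay wholly inside a member in 355 cases, belonging to 326 genes. The 6 windows below were picked after their values were seen, to show sites with an AP-1 motif beside CHD4, lamin A/C or Lap2alpha regions, and 1 site without the motif. They are printed from 5′ to 3′ along the gene, with AP-1 matches (TGANTCA) in capitals. Those of Adh7 (chr3:138217523-138217822, plus strand, a retinol and alcohol dehydrogenase), Mrtfb (chr16:13358171-13358470, plus strand, a coactivator of SRF), Btbd11 (chr10:85598161-85598460, plus strand, a BTB domain protein) and Cald1 (chr6:34709194-34709493, plus strand, the actin-binding caldesmon) are starts inside coding genes. Those of Junos (chr4:95094563-95094862, plus strand, a noncoding gene beside Jun) and Malat1 (chr19:5802623-5802922, minus strand, a nuclear speckle RNA) are noncoding starts.
Adh7: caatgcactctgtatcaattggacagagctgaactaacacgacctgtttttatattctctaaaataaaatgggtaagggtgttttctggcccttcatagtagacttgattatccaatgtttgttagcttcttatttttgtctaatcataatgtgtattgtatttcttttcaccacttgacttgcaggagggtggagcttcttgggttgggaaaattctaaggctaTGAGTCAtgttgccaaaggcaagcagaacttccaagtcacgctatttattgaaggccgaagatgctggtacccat
Mrtfb: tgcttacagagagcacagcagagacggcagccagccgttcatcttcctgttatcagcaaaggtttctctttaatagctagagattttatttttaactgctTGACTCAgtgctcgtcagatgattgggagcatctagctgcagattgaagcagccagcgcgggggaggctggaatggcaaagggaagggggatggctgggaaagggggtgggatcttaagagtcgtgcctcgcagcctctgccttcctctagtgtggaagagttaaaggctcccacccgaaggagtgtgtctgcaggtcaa
Btbd11: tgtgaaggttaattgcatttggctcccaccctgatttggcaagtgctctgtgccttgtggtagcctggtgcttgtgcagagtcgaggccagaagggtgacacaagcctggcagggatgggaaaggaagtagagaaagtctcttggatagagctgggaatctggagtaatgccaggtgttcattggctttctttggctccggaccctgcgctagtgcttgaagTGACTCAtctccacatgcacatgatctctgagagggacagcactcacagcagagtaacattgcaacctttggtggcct
Cald1: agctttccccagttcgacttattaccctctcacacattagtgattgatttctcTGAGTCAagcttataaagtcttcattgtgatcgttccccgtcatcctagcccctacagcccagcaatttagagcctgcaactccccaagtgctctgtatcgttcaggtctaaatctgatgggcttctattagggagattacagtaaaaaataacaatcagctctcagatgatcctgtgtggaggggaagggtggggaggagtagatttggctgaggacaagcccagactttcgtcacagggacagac
Junos: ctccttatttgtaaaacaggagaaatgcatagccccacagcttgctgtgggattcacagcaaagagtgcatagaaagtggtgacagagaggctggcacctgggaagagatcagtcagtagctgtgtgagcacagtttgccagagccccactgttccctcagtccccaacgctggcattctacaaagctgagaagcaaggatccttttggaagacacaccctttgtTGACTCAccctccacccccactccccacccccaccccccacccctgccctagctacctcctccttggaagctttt
Malat1: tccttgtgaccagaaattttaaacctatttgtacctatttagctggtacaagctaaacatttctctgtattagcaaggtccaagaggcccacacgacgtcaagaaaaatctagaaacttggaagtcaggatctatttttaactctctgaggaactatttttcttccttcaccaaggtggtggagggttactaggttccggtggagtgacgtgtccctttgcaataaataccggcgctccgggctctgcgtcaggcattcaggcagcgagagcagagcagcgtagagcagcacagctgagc

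All 6 of these sites held CHD4 regions in both WT libraries and in KO at 16 cycles. The Adh7 and Mrtfb sites held Lap2alpha at both sonication lengths, and the Adh7 site also KO 3A6 at 20 cycles. The Btbd11 site held lamin A/C in both KO 3A6 libraries and no Lap2alpha. The Junos site held KO E1 at 16 cycles, and the Cald1 site held Lap2alpha at 20 cycles. The Malat1 start, which has no AP-1 match, lay in a site of 3330 bp with CHD4 in all 4 libraries and Lap2alpha at both lengths.

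AP-1 matches were frequent in these start windows. TGANTCA, which reads the same on both strands, was found in 28.2% of the 355 windows inside members against 7.81% of all 32851 windows. The 20 windows inside distal BRG1 regions missing from 1 or more BRG1 lists held it in 20% of cases. It was found in 8.48% of the 1522 windows wholly inside constant BRG1 sites within 1 kb of a coding gene end, and in 9.08% of the 7161 windows equally far from gene ends but without BRG1 in any list. By gene type the share inside members was 31.7% of 240 noncoding and 20.9% of 115 coding windows. The TEAD motif GGAATG, read on both strands, was in 25.4% of the windows inside members, 14.7% of all windows and 30% of the 20 windows in distal regions missing from other lists. Neither motif is shown to be particular to the members. Other motifs searched on both strands differed less: RUNX (TGNGGT) was in 46.8% against 45.8%, TWIST (CAGATG) in 21.4% against 17.2%, CEBP (TTNNGCAA) in 15.5% against 10.8%, and CRE (TGACGTCA) in 1.97% against 1.79%. The median GC content was 51.0% inside members, 52.7% over all windows and 62.7% inside the gene-end sites. These windows are a small and unusual subset, since most members lie at no annotated start, and a match does not show that a factor was bound.

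The libraries were compared between members with and without an AP-1 match in a start window. Of 94 members with a match in a window inside them, 79.8% held WT CHD4 at 16 cycles (95% Wilson interval 70.6 to 86.7), against 73.7% (67.7 to 79.0) of 232 members whose windows had none. For KO 3A6 at 16 cycles the shares were 13.8% and 14.2%, and for Lap2alpha at 20 cycles 23.4% and 23.7%. The gaps were relatively wider for KO CHD4 at 20 cycles, 10.6% (5.88 to 18.5) against 5.17% (2.98 to 8.82), and for KO E1 at 16 cycles, 6.38% (2.96 to 13.2) against 2.59% (1.19 to 5.53), on 6 members in each class. The intervals printed here overlapped within each pair of classes.

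The members were wide BRG1 sites spread through genes and between them. Their median width was 746 bp (quartiles 500 and 1002), against 641 bp for constant sites within 1 kb of a gene end and 308 bp for the 21142 distal regions of the WT library at 16 cycles that were missing from 1 or more other BRG1 lists. BRG1 regions at the members had median widths of 836 bp in WT at 20 cycles, 974 bp in KO at 16 cycles and 802 bp in KO at 20 cycles. Since presence in all 4 lists chose the members and wide regions are overlapped more easily, these widths are partly set by the rule. The members covered 21.4 Mb in all, and 45.1% of them lay inside the body of a coding gene, 14.7% inside an annotated lncRNA gene, and 43.2% in neither. The median distance to the nearest coding gene end was 49.5 kb (quartiles 23.6 and 118), and the farthest member was 2042 kb away.

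The 10 kb limit did not mark a step in most libraries. Just outside it, at 8 to 10 kb (1483 constant sites), 57.3% of sites held WT CHD4 at 16 cycles, 17.3% KO 3A6 at 16 cycles and 9.91% Lap2alpha at 16 cycles. Just inside it, at 10 to 12 kb (1407 members), the shares were 62.3%, 16.0% and 11.23%.

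In the 3 longer lists CHD4 regions lay at most members, the larger part of them regions with the same centre as a BRG1 interval. In WT at 16 cycles, 18549 members (65.7%, Wilson interval 65.1 to 66.3) held a CHD4 region, against 59.6% of all constant BRG1 sites. At 20 cycles 21227 (75.2%, background 78.9%) did. In KO at 16 cycles 23475 members (83.1%, background 83.5%) held one. The KO library at 20 cycles stood apart with 1620 members (5.74%, background 5.62%), from a list of only 7283 regions, so its share is limited by the list. Without regions centred on a WT BRG1 interval the shares were 6.89% in WT at 16, 10.7% in KO at 16, 16.3% in WT at 20 and 5.72% in KO at 20 cycles, and CHD4 was then at a minority of members in every library. With all regions counted, CHD4 was present in all 3 longer lists at 14626 members (51.8%) and in none of them at 1752 (6.21%). Neither count was made over all constant BRG1 sites, so they have no background.

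The overlap between CHD4 libraries was read against their shares over all members. The WT libraries shared 15805 members, 85.2% of those at 16 cycles and 74.5% of those at 20 cycles, where 75.2% and 65.7% of all members held the other library. Of the members with CHD4 in WT at 16 cycles, 89.7% held it in KO at 16 cycles too, against 83.1% of all members, and so did 97.5% of those with KO CHD4 at 20 cycles. The overlaps were thus above the shares over all members, which were themselves high. At 16 cycles the share was 17.4 percentage points higher in KO than in WT, beside a KO list 1.80 times as long. At 20 cycles KO minus WT was -69.4 points, beside a KO list 0.0663 times as long, so the pairs pointed in opposite directions and give no common difference between genotypes. With the longer list of the pair shortened to the length of the other, keeping the widest regions, the 16-cycle difference was 3.12 points, and without regions centred on a WT BRG1 interval it was 3.81. The 20-cycle difference became -6.44 and -10.6 points by the same steps. The second step is unequal there: 80.2% of members with WT CHD4 at 20 cycles had a region with the BRG1 centre, against 0.309% of those with KO CHD4.

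The WT CHD4 libraries differed more from each other near genes. At constant sites within 1 kb of a gene end, 41.7% held WT CHD4 at 16 cycles and 91.5% at 20 cycles, so the distal share was 24.0 points higher at 16 cycles and 16.3 points lower at 20 cycles. In KO at 16 cycles the shares were close, 83.1% distal and 84.0% at gene ends. Constancy of BRG1 went with more CHD4: at distal regions missing from other BRG1 lists the CHD4 shares were 22.5%, 20.1% and 23.6% in WT at 16, KO at 16 and WT at 20 cycles, beside a median width of 308 bp.

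Lamin A/C was found at a minority of members in every library, and at more of them in KO than in WT in 4 of 4 matched pairs. With 3A6 at 16 cycles, 680 members (2.41%, interval 2.24 to 2.59; background 1.77%) held a region in WT and 4887 (17.3%, 16.9 to 17.8; background 15.8%) in KO. At 20 cycles the counts were 406 (1.44%, background 1.01%) in WT and 2185 (7.74%, background 6.7%) in KO. In all 4 pairs, the E1 pairs given below included, the Wilson intervals of the genotypes did not overlap. They cover only the counting of sites within 1 library each, so this does not measure a difference between genotypes. With E1 at 16 cycles, 371 members (1.31%, background 0.973%) held a region in WT and 1706 (6.04%, background 4.63%) in KO. E1 at 20 cycles gave the lowest shares, 142 members (0.503%, background 0.333%) in WT and 324 (1.15%, background 0.825%) in KO.

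The KO shares were 7.19, 5.38, 4.598 and 2.28 times the WT shares for 3A6 at 16, 3A6 at 20, E1 at 16 and E1 at 20 cycles. The KO lists as a whole were 2.19, 1.24, 2.46 and 1.62 times as long. Over the pairs the log2 ratio of the shares was 2.17 ± 0.70 (SD, n = 4 pairs), against 0.86 ± 0.44 for list length and 1.38 ± 0.27 at distal regions missing from other BRG1 lists. At constant BRG1 sites nearer to genes it was higher, 3.30 ± 0.83 at 1 to 10 kb from a gene end and 3.90 ± 1.44 within 1 kb. The last value lacks E1 at 20 cycles, which had no WT site there. A high KO to WT ratio is thus not particular to the members. The difference in points was 6.64 ± 5.999 at the members, 5.42 ± 5.89 at 1 to 10 kb and 3.94 ± 4.83 within 1 kb. When the longer list of each pair was shortened to the length of the other, keeping the widest regions, the ratios were 3.35, 4.31, 2.102 and 1.14, with a mean log2 of 1.28, so the E1 pair at 20 cycles was then nearly level. Without regions centred on a WT BRG1 interval, the KO shares of the 3A6 pairs were 6.07% and 5.50% against 0.570% and 0.400% in WT. This removal was unequal, since the BRG1 centre was found at 77.1% of WT and 66.8% of KO members with 3A6 at 16 cycles, and at 74.4% and 30.9% at 20 cycles. In the E1 lists it was found at no more than 0.539%, so the step leaves their values almost as they were by construction. The pairs differ in antibody and sonication, not in cells, so their SD does not measure variation between cultures.

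**Figure D1:**
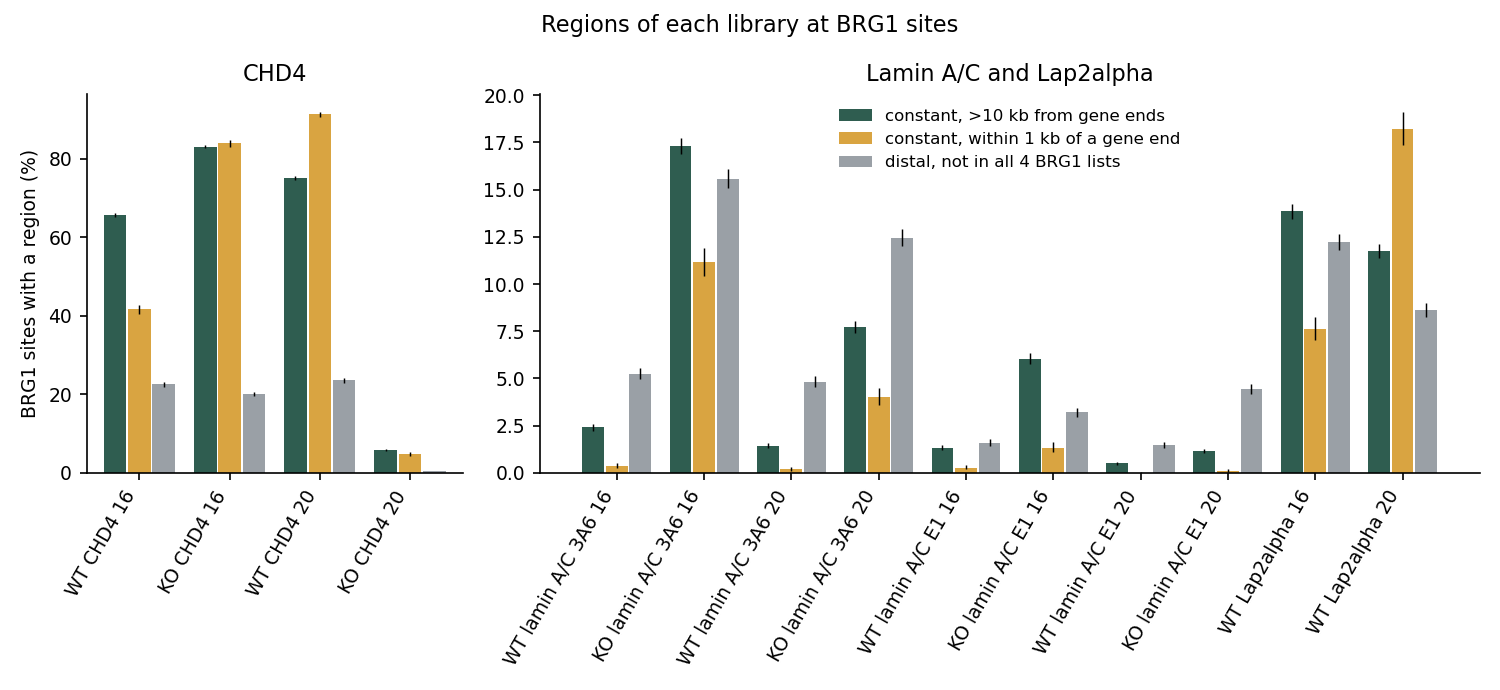
Share of BRG1 sites (%) that held a region of each CHD4, lamin A/C and Lap2alpha library (left and right panels have different scales), for constant distal sites, constant sites within 1 kb of a gene end, and distal regions missing from 1 or more BRG1 lists. Bars show 1 library each and black lines 95% Wilson intervals of counting error; the KO lamin A/C bar is above its WT partner in all 4 pairs at the distal sites.

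Most members with lamin A/C in KO lacked it in WT, but so did most members of any kind. WT lamin A/C was at only 0.503% to 2.41% of members per library, so these counts do not measure a gain at single sites. A region in 1 or more KO and no WT library was found at 7118 members (25.2%, background 22.4%), and the opposite at 722 (2.56%, background 1.89%). Both genotypes had lamin A/C at 602 members (2.13%), and 19791 (70.1%) had it in none of the 8 libraries. No background was computed for either of these counts. Most sites of a single list were not in a second one. The KO 3A6 libraries shared 678 members, 13.9% of those at 16 cycles and 31.0% of those at 20 cycles, and the WT 3A6 libraries 93 (13.7% and 22.9%). These overlaps lay above the shares over all members, 7.74% and 17.3% in KO and 1.44% and 2.41% in WT. Across antibodies in KO at 16 cycles 389 members were shared, 7.96% of the 3A6 and 22.8% of the E1 members. These were a little above the shares of the other antibody over all members, 6.04% for E1 and 17.3% for 3A6. Lamin A/C in 2 or more KO and no WT libraries was accordingly found at 1073 members only (3.801%, background 3.13%).

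Lamin A/C shares were higher at members than at constant gene-end sites in 8 of 8 libraries. The difference was 1.21 ± 0.64 points over the 4 WT libraries and 3.91 ± 2.16 over the 4 KO libraries. In WT only 0.359% of gene-end sites held 3A6 at 16 cycles, 0.180% 3A6 at 20 cycles and 0.276% E1 at 16 cycles, and 0 of 7240 held E1 at 20 cycles (Wilson upper bound 0.0530%). In KO the gene-end shares were 11.1%, 4.01%, 1.33% and 0.110% in the same order. Distal regions missing from other BRG1 lists held more WT lamin A/C than the members, 5.24% and 4.83% for 3A6 and 1.59% and 1.47% for E1.

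Lap2alpha, mapped in WT, was present at 3912 members (13.9%, interval 13.5 to 14.3; background 11.9%) at 16 cycles and 3311 (11.7%, 11.4 to 12.1; background 13.2%) at 20 cycles. Both libraries named the same site at 677 members (2.40%, background 2.35%), 17.3% of the 16-cycle and 20.4% of the 20-cycle members. The 2 libraries differed near genes: at gene-end sites 7.62% held Lap2alpha at 16 cycles and 18.2% at 20 cycles. Without regions centred on a WT BRG1 interval the distal shares were 3.35% and 3.54%, and if a site had to be covered to 50% by Lap2alpha the mean of the libraries was 2.87% in place of 12.8%.

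Around the members, regions were concentrated at the site itself, where many had the same centre as the WT BRG1 interval of the 16-cycle list. At 16 cycles such a region was found at 90.1% of members with WT CHD4, 77.1% with WT 3A6 and 77.2% with Lap2alpha. For WT E1 at 16 cycles it was 0.539%. No profile was computed without these regions, so their part in the ratios given here was not tested. A 200 bp window at the site centre overlapped WT CHD4 at 16 cycles in 65.3% of cases, against 4.25% of windows 10 kb to each side, a ratio of 15.4. The ratio was 10.98 for KO CHD4 at 16 cycles and 9.34 for WT CHD4 at 20 cycles. For 3A6 at 16 cycles it was 6.67 in WT and 5.61 in KO, and for Lap2alpha 9.96 and 6.81 at 16 and 20 cycles. E1 at 20 cycles was the exception, with 1.39 in WT and 0.975 in KO. Windows 1 kb from the centre were occupied less than those at 10 kb for WT 3A6 (0.119% against 0.340%), KO 3A6 (1.27% against 2.79%) and Lap2alpha (0.678% against 1.32%), all at 16 cycles. The same was seen in the WT BRG1 list that gave the members (4.72% against 6.69%) and in WT CHD4 (3.27% against 4.25%) at 16 cycles. It was not seen at 16 cycles for WT E1 (0.149% against 0.124%) or KO CHD4 (7.59% against 7.54%).

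The KO excess of lamin A/C was not confined to the sites. At the centre, KO windows were occupied 6.90, 5.11, 4.66 and 2.14 times as often as WT windows for 3A6 at 16 and 20 and E1 at 16 and 20 cycles. At 10 kb the same ratios were 8.20, 4.05, 5.31 and 3.06, so in 3 of 4 pairs the flanks differed by as much as the centre or more.

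**Figure D2:**
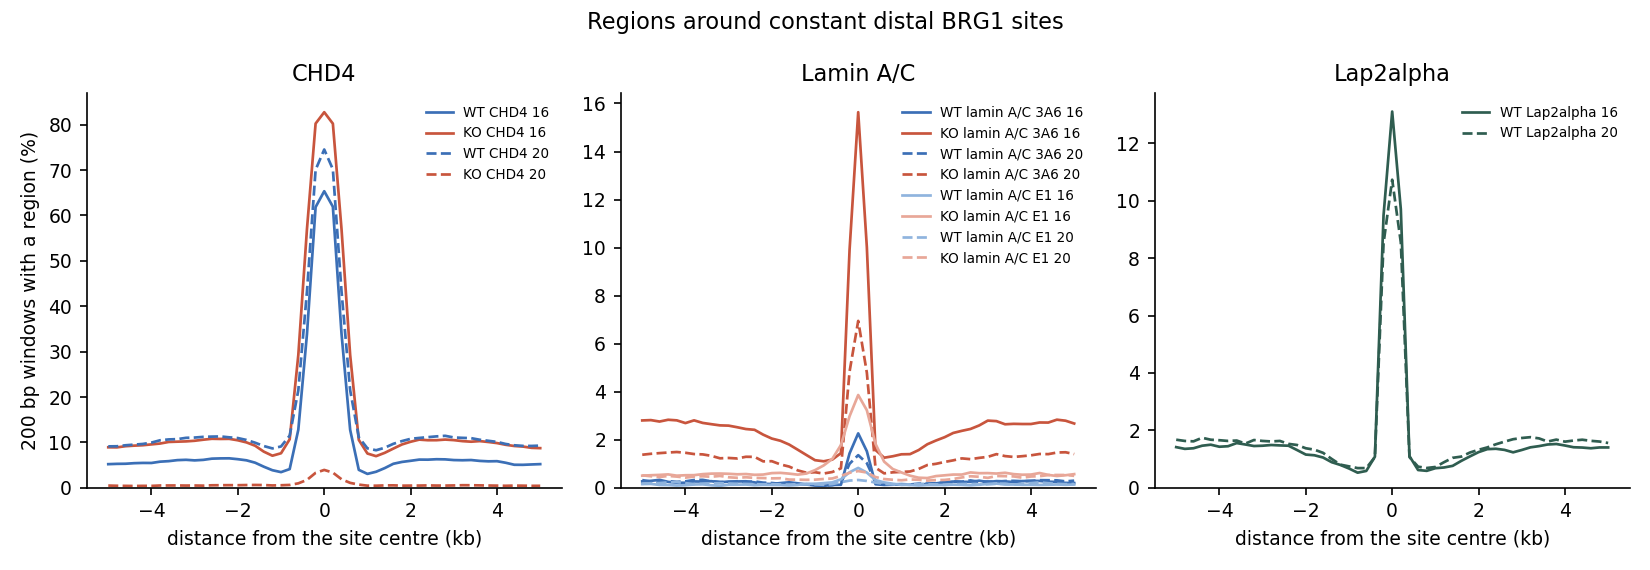
Share of 200 bp windows (%) that overlap a region, by distance from the centre of constant distal BRG1 sites (kb), for CHD4, lamin A/C and Lap2alpha, 1 line per library (blue WT, red KO, solid 16 cycles, dashed 20 cycles; Lap2alpha in green). The highest values at the centre are 82.7% for KO CHD4 and 15.6% for KO 3A6, both at 16 cycles, while KO E1 at 20 cycles has 0.698% at the centre and 0.715% at 10 kb (beyond the plotted range). KO lamin A/C also lies above WT in the flanks.

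Members with Lap2alpha more often held CHD4 and WT lamin A/C. At 16 cycles 84.4% of members with Lap2alpha held WT CHD4, against 62.7% of those without. WT 3A6 was at 6.13% against 1.81% and WT E1 at 4.96% against 0.728%. In KO, which lacks Lap2alpha, the same sites held 3A6 at 16 cycles in 16.9% against 17.4%, and E1 at 16 cycles in 10.6% against 5.31%. At 20 cycles the shares with and without Lap2alpha were 82.1% and 74.3% for WT CHD4, 2.17% and 1.34% for WT 3A6, and 1.03% and 0.433% for WT E1. Members with Lap2alpha at 16 cycles were wider, with a median of 948 bp against 718 bp. Among the narrowest members (lowest width class), CHD4 at 16 cycles was at 42.7% with Lap2alpha and 26.7% without, and within the widest at 97.9% and 92.8%. At 20 cycles the gaps were smaller, 58.6% and 48.5% in the narrowest and 97.5% and 95.6% in the widest class. The WT lamin A/C shares with and without Lap2alpha were not split by width. On the autosomes alone, WT 3A6 was at 5.11% with Lap2alpha and 1.66% without, and WT E1 at 4.36% and 0.657%.

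Lamin A/C and CHD4 did not relate in one way. Members with WT 3A6 at 16 cycles held WT CHD4 in 79.9% of cases against 65.4% of the others, while at 20 cycles the shares were 58.9% and 75.4%. Members with WT 3A6 were wider than the others at 16 cycles (867 against 744 bp) and narrower at 20 cycles (584 against 748 bp). In the narrowest class the order of the CHD4 shares was the same, 41.6% against 27.6% at 16 cycles and 37.3% against 49.7% at 20 cycles. In KO at 16 cycles CHD4 was at 84.9% of members with 3A6 and 82.8% of those without.

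The width of the BRG1 region went with CHD4. Over 4 width classes of about equal size (median 348, 628, 854.5 and 1108 bp), WT CHD4 at 16 cycles was at 27.9%, 58.6%, 82.6% and 94.1%. Lap2alpha at 16 cycles was at 7.42% in the narrowest and 24.8% in the widest class, and KO E1 at 16 cycles at 2.11% and 11.1%. KO 3A6 at 16 cycles was at 15.5% and 18.3%. At 20 cycles 3A6 went the other way, from 2.23% in the narrowest to 0.783% in the widest class in WT and from 8.20% to 6.79% in KO. A wider site is overlapped more easily, and the part of width in these differences was not tested.

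WT lamin A/C was more frequent at members farther from genes. For WT 3A6 at 16 cycles the shares were 1.31%, 1.84%, 2.11%, 3.33% and 5.11% at distances of 10 to 20, 20 to 50, 50 to 100, 100 to 250 and over 250 kb (5562, 8633, 5789, 5372 and 2877 members). For WT 3A6 at 20 cycles they went from 0.521% in the nearest to 3.51% in the farthest bin, for WT E1 at 16 cycles from 0.629% to 2.22%, and for WT E1 at 20 cycles from 0.0719% to 1.39%. All 4 WT libraries thus had their highest share in the farthest bin. In KO the 3A6 share at 16 cycles was nearly level, 17.2% in both the nearest and the farthest bin, while 3A6 at 20 cycles went from 6.44% to 10.6% and E1 at 16 cycles from 4.37% to 8.27%. WT CHD4 went from 62.2% to 70.1% at 16 cycles and from 77.2% to 68.0% at 20 cycles, and KO CHD4 at 16 cycles from 84.8% to 77.0%. Lap2alpha at 16 cycles went from 11.4% to 17.5% and at 20 cycles from 12.48% to 11.7%.

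**Figure D3:**
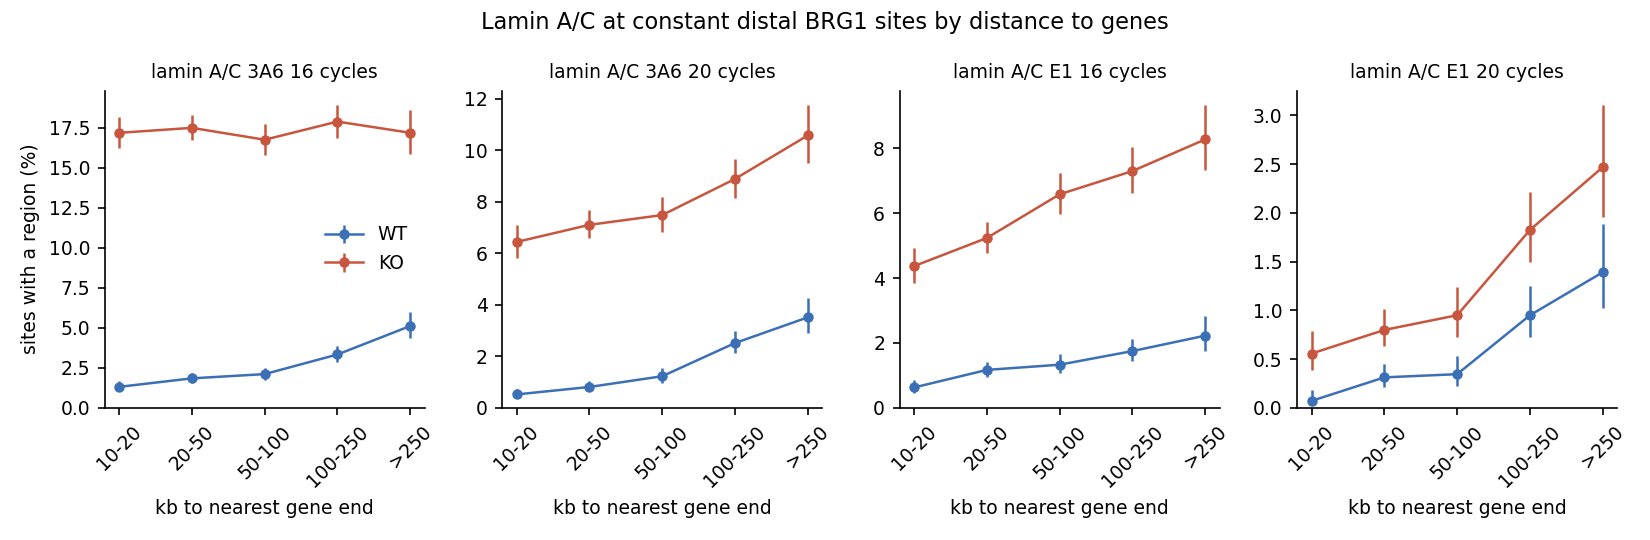
Share of constant distal BRG1 sites with a lamin A/C region (%) by distance to the nearest coding gene end (kb), in 1 panel per antibody and sonication length (scales differ), WT in blue and KO in red with 95% Wilson intervals. WT shares are highest in the bin over 250 kb in all 4 panels, and KO 3A6 at 16 cycles stays between 16.7% and 17.9%.

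The number of coding genes around a member gave the same order in WT. In Mb bins with 0 to 2 genes (5951 members), WT 3A6 was at 4.34% of members at 16 cycles and 3.23% at 20 cycles. In bins with 11 or more genes (6845 members) the values were 0.979% and 0.453%. For KO 3A6 at 16 cycles they were 17.5% and 16.7%. Lap2alpha at 16 cycles was at 16.4% in gene-poor and 10.9% in gene-rich bins, and at 20 cycles at 10.9% and 12.3%. Sites inside and outside coding gene bodies held Lap2alpha at 16 cycles in 13.8% and 13.9% of cases, KO 3A6 at 16 cycles in 17.1% and 17.5%, and KO 3A6 at 20 cycles in 6.87% and 8.45%.

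Chromosome X stood apart in several WT libraries at 16 cycles. It held 710 members, at 4.2 per Mb the lowest density of any chromosome with members, while chromosome 15 had the highest at 15.8 per Mb and chromosome Y had 0. Lap2alpha at 16 cycles was at 40.8% of X members and 13.2% of autosomal ones, WT 3A6 at 16 cycles at 13.8% and 2.11%, and WT E1 at 16 cycles at 7.89% and 1.14%. WT CHD4 at 16 cycles was also higher on X, 77.2% against 65.4%, while WT CHD4 at 20 cycles (67.6% against 75.4%) and KO CHD4 at 16 cycles (76.5% against 83.3%) were lower there than on any autosome. The lists as a whole were rich in X regions, 21.3% of all Lap2alpha, 18.5% of WT E1, 13.3% of WT 3A6 and 8.93% of WT CHD4 regions at 16 cycles, against 2.46% to 4.09% of the BRG1 lists. At 20 cycles the X and autosomal shares were 23.1% and 11.4% for Lap2alpha, 2.54% and 1.41% for WT 3A6, and 0.563% and 0.501% for WT E1. With 1 library per group, a feature of these libraries and of the cells cannot be told apart.

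On X the genotypes of the 16-cycle 3A6 pair were reversed, and those of the E1 pair differed little. KO 3A6 was at 8.17% of X members, 5.63 points lower than the WT share, and KO E1 at 6.90%, 0.986 points lower. With 710 X members, the E1 gap is not shown to exceed counting error. On every autosome KO was above WT in both 16-cycle pairs. At 20 cycles KO was higher on all 20 chromosomes for 3A6 and on 19 of 20 for E1, the exception being chromosome 19, lower by 1.91 points. On the autosomes alone the mean log2 ratio over the 4 pairs was 2.27. Of the autosomes, chromosome 8 (1600 members) had the smallest excess of KO 3A6, 4.75% against 4.44% in WT at 16 cycles and 4.06% against 3.19% at 20 cycles, and held Lap2alpha at 23.5% and 20.6% of its members.

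**Figure D4:**
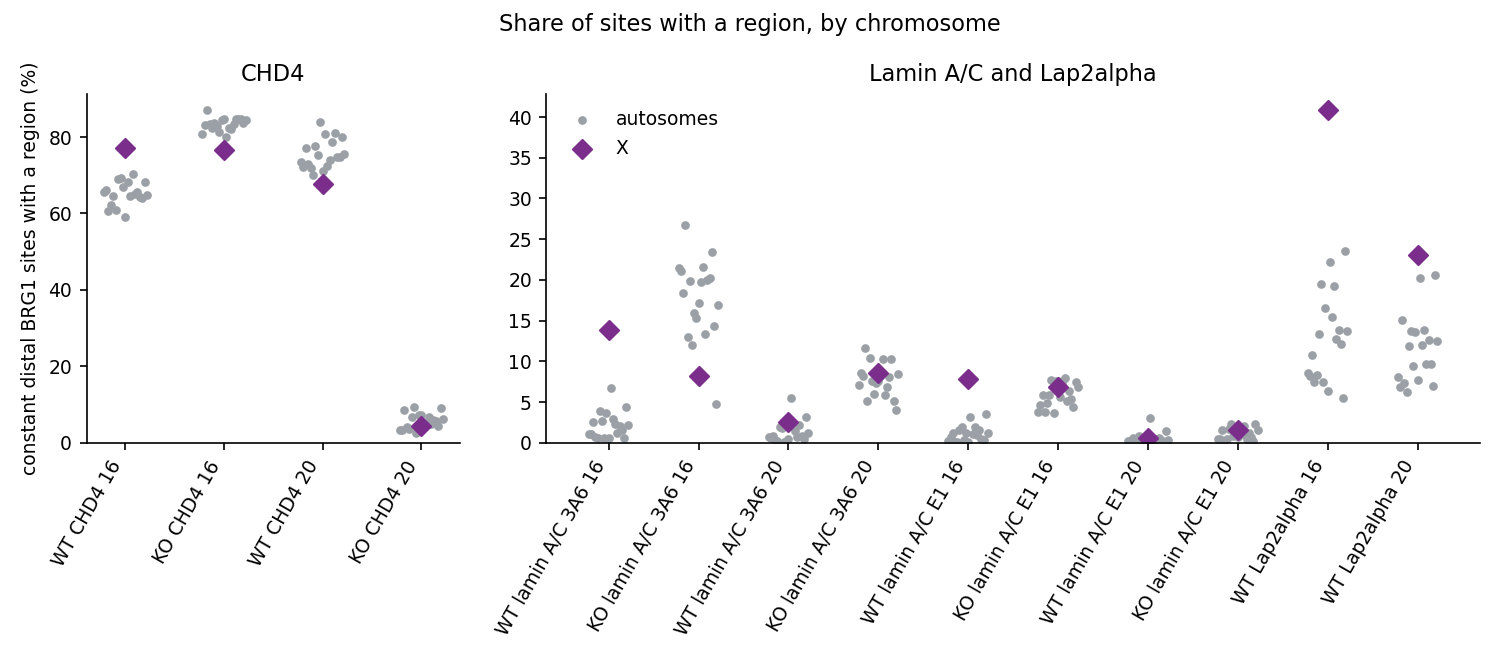
Share of constant distal BRG1 sites with a region (%) on each autosome (grey points) and on chromosome X (purple diamonds), for each CHD4 library (left) and each lamin A/C and Lap2alpha library (right, different scale). X lies above all autosomes for Lap2alpha at both lengths and for WT CHD4, WT 3A6 and WT E1 at 16 cycles.

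The members gathered around a small set of genes. Of 21887 coding genes, 6266 (28.6%) were the nearest gene of 1 or more members, and 778 (3.55%) were the nearest of 10 or more and together had 46.5% of all members. A gene with no close neighbours can be nearest to more members, and the part of spacing in these counts was not tested. Myc, the growth-promoting transcription factor (chr15:61985341-61990361), had the most, 92 sites, 19 to its left and 73 to its right, from 531 kb before to 848 kb past the gene. Zeb2, a repressor of epithelial genes, had 64, of which 58 lay to its right. Cited2, a cofactor of CBP and p300, the ephrin gene Efnb2 and the recombination gene Rad51b had 59 each, with 51 of the Rad51b sites inside that gene. Nrg1, a growth factor (56, 47 of them inside the gene), the zinc finger factor Klf6 (55), the focal adhesion gene Lpp (55), the splicing regulator Mbnl1 (54) and the phosphodiesterase Pde4d (51) completed the first 10.

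The libraries at these genes are given by count of sites. Over all members, 65.7%, 83.1% and 75.2% held CHD4 in WT at 16, KO at 16 and WT at 20 cycles. Lap2alpha was at 13.9% and 11.7% of all members at 16 and 20 cycles. Lamin A/C was at 25.2% of them in 1 or more KO and no WT library, at 2.56% in WT alone and at 2.13% in both genotypes. Of the 92 Myc sites, 69, 73 and 71 held CHD4 in WT at 16, KO at 16 and WT at 20 cycles, and 24 and 13 held Lap2alpha at 16 and 20 cycles. Lamin A/C was at 9 Myc sites in 1 or more KO libraries and at 4 in 1 or more WT libraries. At Zeb2, 35 of 64 sites held lamin A/C in 1 or more KO libraries and 3 in WT, while 5 and 9 held Lap2alpha. At Efnb2 22 and 12 of 59 sites held Lap2alpha, with lamin A/C at 6 sites in KO and 5 in WT. Efnb2 lies on chromosome 8, whose members as a whole had high Lap2alpha and level 3A6 shares, so this is not shown to belong to the gene. The Mbnl1 sites were alike in this, with Lap2alpha at 20 and 9 of 54 and lamin A/C at 2 in each genotype.

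**Figure D5:**
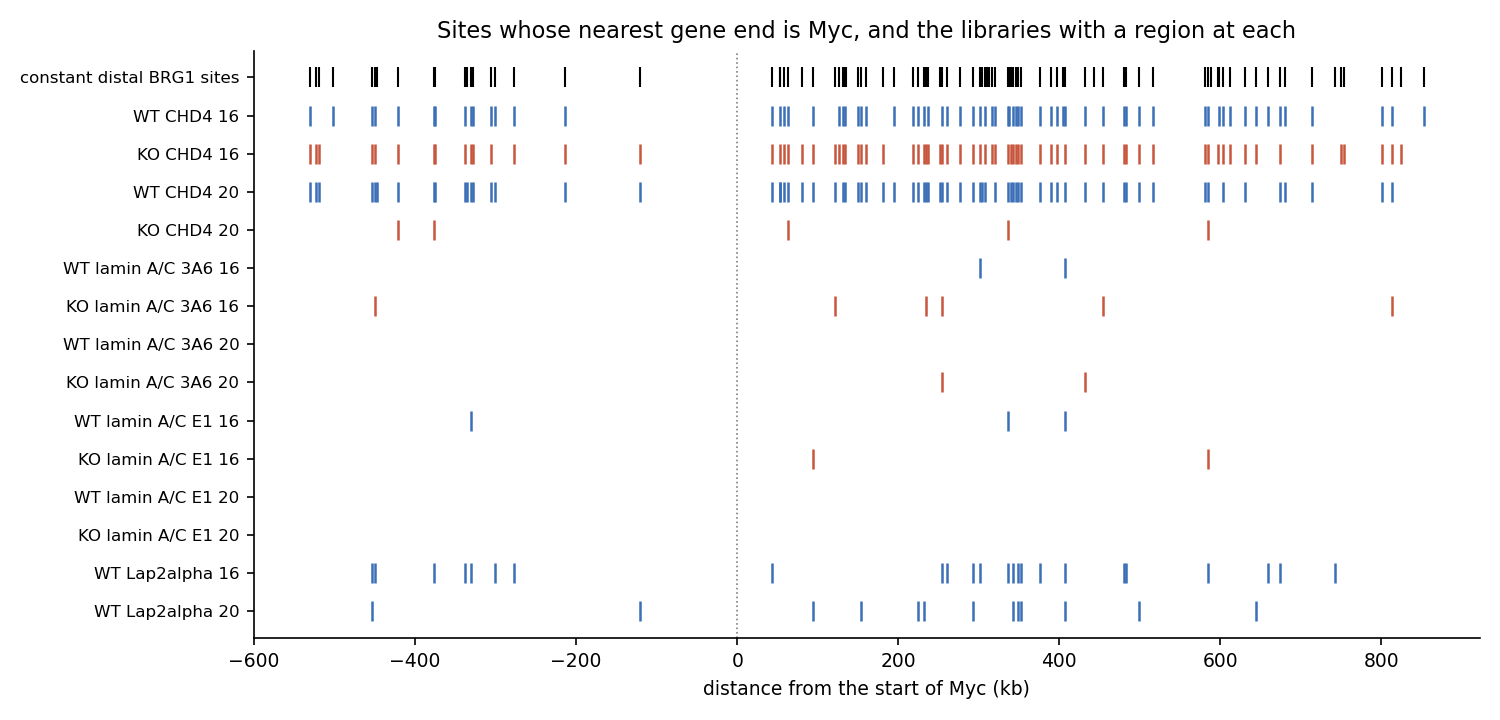
Positions of the 92 constant distal BRG1 sites nearest to Myc, by distance from the gene's start (kb), in the top line, and below it the sites that held a region of each library (blue WT, red KO). CHD4 marks 69 to 73 of the sites in its 3 longer lists, and lamin A/C marks 0 to 6 sites in each of the 8 libraries.

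Lists of genes of fibroblast biology were set against all coding genes, of which 28.6% were the nearest gene of a member. Of 32 fibroblast and matrix genes, 29 were the nearest gene of 1 or more members and 12 of 10 or more; Tnc, the matrix protein tenascin C, had 26 sites, Fn1, fibronectin, 17, Col1a2, a collagen I chain, 16, and the proteoglycan gene Dcn 16. Of 28 genes of TGF-beta and BMP signalling 23 had members, with the receptor gene Tgfbr2 at 22, the ligand genes Tgfb2 at 19 and Bmp4 at 14, and the mediator Smad3 at 17. Of 42 mesenchymal transcription factor genes 29 had members, including Nfib with 38, Runx1 with 36 and Foxp1 with 27. Of 24 contractile and YAP target genes 14 did, led by the TEAD factor gene Tead1 (15), the tropomyosin gene Tpm1 (13), the YAP paralogue Wwtr1 (13) and Anxa1 (11). Of 22 AP-1 and immediate early genes 11 did, with Jun at 21 and Klf4 at 17 beside Myc and Klf6.

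Lists of other cell types varied. Of 17 keratinocyte genes 7 had members, 16 of the 27 sites at Trp63, the epidermal p63 gene. Of 11 endothelial genes 6 did, with 17 sites at Cdh5, the endothelial cadherin. Of 16 leukocyte genes 3 did, and of 18 muscle, adipocyte and melanocyte genes 8. Long neuronal genes, however, had members in 25 of 28 cases, led by the synaptic scaffold gene Dlg2 with 38, and the endothelial share (54.5%) was above that of the AP-1 list (50%). The part of gene length and spacing in these counts was not tested. Constant BRG1 sites within 1 kb of a gene end were found at 32.7% of all genes. They lay at 23 of 32 fibroblast and matrix genes and 17 of 24 contractile and YAP target genes. Counts were 13 of 22 for the AP-1, 20 of 42 for the mesenchymal factor and 15 of 28 for the TGF-beta list. Keratinocyte genes had 1 of 17, endothelial genes 0 of 11 and leukocyte genes 1 of 16. Muscle, adipocyte and melanocyte genes had 4 of 18 and long neuronal genes 3 of 28. These sites rest on the same 4 BRG1 lists as the members, so they are no independent check of the cell type.

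WT lamin A/C at the sites of a list rested on few sites. Of 229 sites of the fibroblast and matrix list, 0.873% held WT 3A6 at 16 cycles, 0% WT 3A6 at 20 cycles and 17.9% KO 3A6 at 16 cycles. Of 146 sites of the long neuronal list the shares were 4.79%, 6.164% and 20.5%, and of 150 sites of the TGF-beta and BMP list 4.67%, 3.33% and 14%. Over all members they were 2.41%, 1.44% and 17.3%. At Tnc 8 of 26 sites held KO 3A6 at 16 cycles and 0 held WT 3A6, at Fn1 6 of 17 and 0, and at Col1a2 0 of 16 in both genotypes.

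Noncoding genes held 4160 members. Mir100hg, host of microRNAs of the miR-100 cluster, had 27 sites, of which 25 held WT CHD4 at 16 cycles and 11 and 6 Lap2alpha at 16 and 20 cycles. Pvt1, beside Myc, had 24, with Lap2alpha at 2 and 4. The 3 sites of Malat1 and the 2 of Neat1, the RNA that builds paraspeckles, all held Lap2alpha at both lengths and CHD4 in the 3 longer lists. Dnm3os, the host transcript of miR-199a and miR-214, had 3 sites, 2 of them with Lap2alpha at both lengths. Of 1005 microRNA hairpins given by RefSeq, 18 overlapped a member. Among them were several of the miR-344 family on chromosome 7, both copies of miR-199a and the hairpins of miR-34a, miR-193a and miR-206. The hairpins were not counted over all constant BRG1 sites, so the count has no background.

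Many members lay close together. With a gap of at most 12.5 kb the sites formed 15756 runs; 35.1% of members stood alone, 43.5% were in runs of 3 or more, and 83 runs had 10 or more sites. The longest by count was at Psd3, an exchange factor gene for the ARF6 GTPase (chr8:68102772-68199276), with 25 sites in 96.5 kb on chromosome 8, of which 84% held WT CHD4 at 16 cycles and 44% and 24% Lap2alpha at 16 and 20 cycles. Others lay at Mtap (22 sites), Stard13 (20), Vmp1 (19), Csf1, the macrophage growth factor (18), Cd44, the hyaluronan receptor (17), and Cdkn2b, a cell cycle inhibitor (16). Sites in runs of 10 or more held more CHD4 and less lamin A/C than single sites. WT CHD4 at 20 cycles was at 88.3% against 66.5%, WT 3A6 at 20 cycles at 0% of 1076 sites against 2.90% of 9915, and KO 3A6 at 20 cycles at 2.97% against 11.3%. At 16 cycles the lamin A/C gaps were relatively smaller, with KO 3A6 at 13.8% against 19.9% and WT E1 at 1.21% against 1.40%. The sites of the long runs were also wider, 913 bp against 684 bp at the median.

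Most members held regions of few libraries. Of the 14 CHD4, lamin A/C and Lap2alpha libraries, exactly 3 were present at 9412 members (33.3%), none at 1091 (3.86%), and 10 or more at 6. These were not counted over all constant BRG1 sites. The single member with 11 lay 20.7 kb from Gvin1, an interferon-inducible GTPase gene (chr7:106236027-106237042), and had lamin A/C in all 8 libraries, CHD4 at 16 cycles in both genotypes, and Lap2alpha at 16 cycles. Those with 10 were at Arhgap6, Sorcs3, Tex14, Oxsm and Pdcd6ip. Lamin A/C in all 4 KO and no WT libraries was found at 5 members (0.0177%). They lay nearest to Cpne8, Marchf1, Fam135b, Basp1 and a predicted gene. The opposite, all 4 WT and no KO libraries, was found at 1 member (0.00354%). It was a narrow site of 272 bp that lay 391 kb from Adra2a (chr19:54439767-54440038). Neither of these lamin A/C counts was made over all constant BRG1 sites, so they have no background. They do not measure a difference between genotypes. Of the 677 members with Lap2alpha at both lengths, those with the widest Lap2alpha regions lay in Neat1, Malat1 and Dnm3os and near Pecr, Igdcc3 and Tex14.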

How the data were processed

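ChIP-seq of BRG1, CHD4, lamin A/C and Lap2alpha covered 22 samples, of which 18 had a list used here; groups follow the sample titles. The authors deposited 3-column interval lists (chromosome, start and end in base pairs on GRCm38), with no score, fold or read depth. Per the submitters' processing notes, the tools included MACS2 2.1.4, HOMER 4.11.1, bedtools, deepTools and SAMtools; what each did, the peak threshold and any pooling are unknown from the sources used here. With 1 library per group there is neither a test nor a p-value.

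Overlapping intervals of a list were merged into regions, and intervals of width 0 (1 to 1201 per list) or on mitochondrial DNA (5 in the KO 3A6 list at 20 cycles and 1 in that of Lap2alpha at 16 cycles) were dropped. Gene ends were those of 21887 RefSeq protein-coding genes of GRCm38.p6. A library was present at a site if a region overlapped it by 1 bp or more. Background percentages are the same counts over all 44506 constant BRG1 sites, which include the members. The 95% Wilson intervals cover counting error only, and neighbouring sites are not independent. Ratios were averaged over matched pairs on the log2 scale.

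Members and gene lists were chosen with earlier results of these data known. By rule, the text names up to 10 sites with the most libraries, the 10 nearest genes with the most sites, up to 10 sites with lamin A/C in all libraries of 1 genotype only or with Lap2alpha at both lengths (widest first), and up to 4 genes of each list, without predicted genes; runs, noncoding genes and printed start windows were picked after their values were seen. Without a genome in use, planned motif and GC counts at site centres gave way to RefSeq start windows of 300 bases lying wholly inside a site. Alternatives covered distance limits, overlap rules, anchor lists, list length and left-out pairs; those on shared centres were chosen after seeing the data. Interval functions were checked on simulated intervals. Python 3.11.15, numpy 2.4.6, pandas 2.3.3, scipy 1.17.1 and matplotlib 3.10.9 were used.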

Additional observations from a re-analysis of the deposited data

Results flagged for a closer look

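In 3 comparisons at these sites the sonication lengths gave opposite directions. With 1 library per group, the difference between lengths was not tested in any of them.

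The KO minus WT difference in the share of members with CHD4 was 17.4 percentage points at 16 cycles and -69.4 at 20 cycles. The KO list at 20 cycles held 7283 regions, against 88788 in the KO list at 16 cycles and 109769 in the WT list at 20 cycles.

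The distal minus gene-end difference for WT CHD4 was 24.0 points at 16 cycles and -16.3 at 20 cycles. The WT list was 49441 regions long at 16 cycles.

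For Lap2alpha the distal minus gene-end difference was 6.23 points at 16 cycles and -6.50 at 20 cycles, from lists of 67557 and 91620 regions.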

How the results depend on the processing

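No direction was reversed in any alternative run. The number of sites was within 1.5 times the reported 28233 under 10 of 12 alternatives, and was 14038 with a limit of 50 kb and 15503 outside all gene bodies. The lamin A/C log2 ratio moved by less than its SD under 24 of 25 alternatives, was 1.28 with lists of equal length, and ranged from 1.94 to 2.49 when each pair was left out. The CHD4 difference at 16 cycles stayed positive: 18.8, 16.2 and 13.2 points with limits of 5, 20 and 50 kb, 15.5 outside gene bodies, 19.9 with 50% BRG1 overlap, 18.2 without regions under 200 bp, 23.4 with 50% of the site covered, 3.12 with equal lists, 15.3 with 1 site per run (gap 10 kb), 15.7 with 3 BRG1 lists and 3.81 without WT BRG1 centres. At 20 cycles it stayed negative: -68.0 at 50 kb, -71.1 with 50% BRG1 overlap, -67.6 without regions under 200 bp, -70.6 in 200 bp windows, -59.6 with 50% covered, -6.44 with equal lists, -68.3 with 1 site per run, -65.7 with 3 BRG1 lists and -10.6 without WT BRG1 centres. The mean Lap2alpha share was 10.1% without regions under 200 bp, 2.87% with 50% of the site covered and 3.45% without WT BRG1 centres. The 3 BRG1 lists with shared centres, and leaving out WT BRG1 centres, were chosen after seeing the data. Equal lists keep the widest regions, which need not be the strongest. The causes were not tested, apart from the regions each alternative leaves out by its construction. Read depth is unknown, so a site without a region cannot be taken as one without the protein.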
